A study of Mus musculus with 10 samples.

Results

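The 8 genes described here encode transcription factors that give spinal neurons their class during development: *Isl1*, *Isl2* and *Mnx1* of motor neurons, and *En1*, *Shox2*, *Lbx1*, *Pax2* and *Lmx1b* of interneurons. They were found by an exact match of their symbols, and all 8 were present among the 25232 genes of the deposited table. RNA-seq was run on spinal cord of female C57BL/6 mice (C57BL/6J in the methods) of 90 days, with 5 wild type (WT) mice and 5 mice carrying the SOD1-G93A transgene. The methods place the dissection in the lumbar cord and name the WT mice as littermates, while the labels name the spinal cord only. The SOD1-G93A mouse carries many copies of a mutant human *SOD1* gene under the promoter of that gene, beside its own *Sod1*, and is a model of familial amyotrophic lateral sclerosis (ALS), a disease in which motor neurons die.

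The deposited table gives no values of single libraries. Beside the authors' own comparison of the genotypes, which was not used here, it gives the base mean of each gene. The base mean is the authors' mean, over the libraries of both genotypes, of the counts divided by size factors. The values below are therefore levels in the whole set of 10 libraries. They carry no spread between mice, and they say nothing on WT against SOD1-G93A cord. The study compared the genotypes before weight loss as part of a search for early changes in lipid metabolism. No comparison of the genotypes was made here for these factors. The base means of all genes summed to 22158933, and 4259 genes were listed at 0.

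Spinal neurons arise from progenitor domains stacked along the dorsoventral axis of the neural tube. Each domain yields a class of neurons that is known by the transcription factors it switches on as it leaves the cell cycle. *Isl1* and *Isl2* encode LIM homeodomain proteins and *Mnx1* a homeodomain protein (HB9), and together they set the motor neuron programme. *En1* marks inhibitory ventral interneurons that limit motor neuron firing, Renshaw cells among them. *Shox2* marks excitatory ventral interneurons of locomotor circuits. *Lbx1* is switched on in a broad group of dorsal horn neurons, *Pax2* in inhibitory neurons of the dorsal and ventral cord, and *Lmx1b* in excitatory dorsal horn neurons. Most of these genes are known from the embryo, and several remain on in part of the neurons of the adult cord. *Isl1* and *Isl2* are also on in sensory neurons of the dorsal root ganglia.

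All 8 factors were detected in the adult cord, and the motor neuron factors lay below the dorsal horn factors. *Pax2* had a base mean of 592.8, *Lmx1b* of 453.3 and *Lbx1* of 262.3. These 3, grouped here as dorsal horn factors although *Pax2* is also on in ventral neurons, held the 3 highest values. *Shox2* followed with a base mean of 98.6. The other ventral interneuron factor, *En1*, had a base mean of 45.9, close to *Isl2* with 47.0 and *Isl1* with 45.6. *Mnx1* had the lowest base mean of the 8, 37.3. The base means spanned 15.9-fold from *Mnx1* to *Pax2*. Summed, the 3 motor neuron factors came to a base mean of 129.9 and the 5 interneuron factors to 1453, and all 8 made up 0.00714% of the normalised counts. In bulk tissue a low level from fewer cells of a type and one from less RNA per cell cannot be told apart.

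A base mean grows with the length of a transcript, so genes were compared with each other after division by the kilobases of their annotated exons (GENCODE M21, GRCm38, the build that mm10 denotes). Beside each value stands a 95% exact Poisson interval for the counts of 10 libraries, which takes the size factors as close to 1. It covers counting error only and not the spread between mice. For the 8 genes the interval reached out from the level by 2.55% to 10.3%, as the mean of both sides.

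Among the motor neuron factors, *Isl2* (chromosome 9, 55538672 to 55546180, plus strand) had a level of 21.4 per kilobase (interval 19.5 to 23.5). Its level lay above that of both other motor neuron factors, without overlap of the intervals. *Mnx1* (chromosome 5, 29473034 to 29478470, minus strand) had a level of 16.6 per kilobase (14.9 to 18.3). *Isl1* (chromosome 13, 116298281 to 116309689, minus strand) was the lowest of all 8, at 11.5 per kilobase (10.5 to 12.6). The place of *Isl1* came from its annotated length, because GENCODE gives it 3959 bases of exon in 5 transcripts, of which the longest has 2516. With the longest transcript the level of *Isl1* was 18.1 per kilobase against 16.6 for *Mnx1*, and over coding exons alone it was 43.6 against 40.2 for *Isl2*, so the order within the trio was not settled. The base means of *Isl1* and *Isl2* differed by 1.03-fold.

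Of the ventral interneuron factors, *Shox2* (chromosome 3, 66971727 to 66981771, minus strand) had a level of 29.8 per kilobase (27.9 to 31.7), 1.70 times that of *En1*. *En1* (chromosome 1, 120602418 to 120607992, plus strand) had a level of 17.5 per kilobase (15.9 to 19.2). The interval of *En1* overlapped that of *Mnx1*, so counting error alone does not separate the pair. *Shox2* lay above *En1* and all 3 motor neuron factors with each of the lengths tried.

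The dorsal horn factors formed the upper group. *Pax2* (chromosome 19, 44756045 to 44837871, plus strand) had a level of 109.6 per kilobase (106.8 to 112.4). *Lbx1* lies 395 kb from it on the same chromosome (45232684 to 45235812, minus strand) and had a level of 105.6 per kilobase (101.6 to 109.7). The intervals of *Pax2* and *Lbx1* overlapped, but the ratio of *Pax2* to *Lbx1* moved from 1.04 to 1.46 with coding exons and 2.26 with no division by length. *Lmx1b* (chromosome 2, 33560965 to 33640511, minus strand) had a level of 92.9 per kilobase (90.2 to 95.6). *Lbx1* was at 1.14 times the level of *Lmx1b*, but at 0.778 times with coding exons and 0.579 times with no division by length. The order of *Lbx1* and *Lmx1b* was thus not settled, while *Pax2* lay above both with each of the lengths tried. The largest step in the order lay below *Lmx1b*, whose level was 3.12 times that of *Shox2*, and this ratio was at least 2.95 with each of the lengths tried. *Pax2* exceeded *Isl1* by 9.51-fold per kilobase. The median of the 5 interneuron factors, which was the level of *Lmx1b*, was 5.60 times that of the 3 motor neuron factors. This ratio reflects the dorsal horn factors, since *Shox2* lay at 29.8 and *En1*, at 17.5, lay among the motor neuron factors. It does not hold for the classes at large. Among the other factors of these classes, described below, the motor neuron median was 46.1, the ventral interneuron median 12.1 and the dorsal horn median 43.2.

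**Figure D1:**
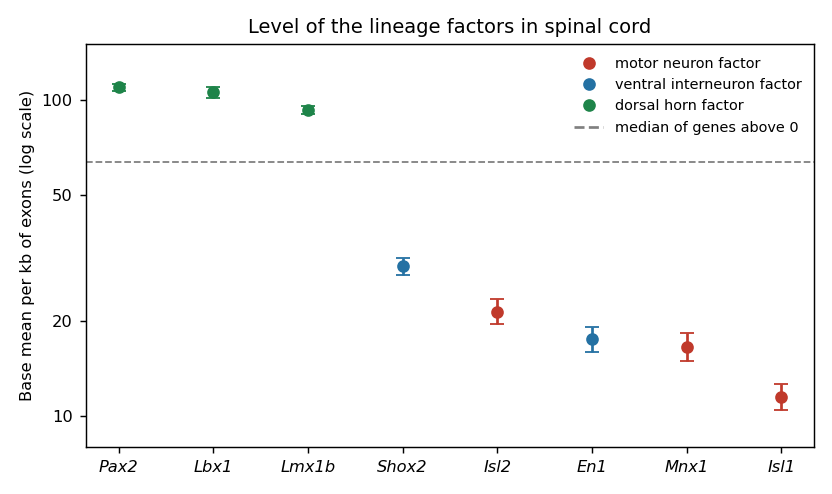
Base mean per kilobase of annotated exons (log axis) of the 8 factors, ordered from high to low and coloured by neuron class, with 95% Poisson intervals of the pooled counts as bars and the median of all genes above 0 as a dashed line. *Pax2*, *Lbx1* and *Lmx1b* sit above the median of 63.5, and the other 5 sit below it.

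**Figure D2:**
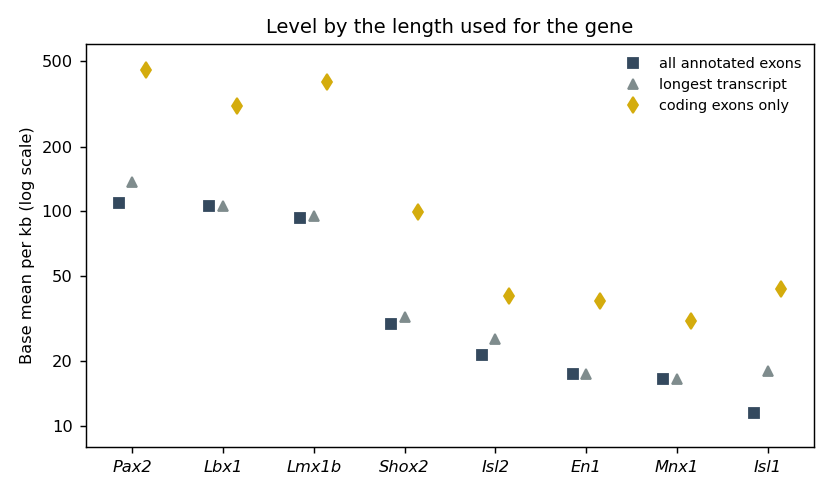
Base mean per kilobase (log axis) of each factor with the length of all annotated exons, of the longest transcript or of the coding exons. *Isl1* moves from 11.5 to 18.1 and 43.6, while the dorsal horn factors stay above the other 5 with each length.

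Against the other genes of the cord these were low to middling levels. Of the genes above 0 with a gene model (20358), the median was 63.5 per kilobase. Above it lay 3 of the 8 factors, *Pax2* at percentile 60.3, *Lbx1* at 59.5 and *Lmx1b* at 57.0. *Shox2* was at percentile 39.0, and the motor neuron factors were at percentiles 35.3 (*Isl2*), 32.8 (*Mnx1*) and 29.5 (*Isl1*). When genes under a base mean of 10 were left out of the background, 0 of the 8 lay above the median.

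The annotation around the factors bears on what was counted. Only 1 of the 8 shares exon bases with another gene. *Shox2* overlaps the first exon of *Rsrc1*, which encodes a splicing-related protein and runs the other way, over 153 bases (4.62% of the *Shox2* exons). *Rsrc1* had a base mean of 1523 against 98.6 for *Shox2*. The libraries were stranded, and the strand setting of the counting is not given in the sources used here, so reads from the shared stretch could have been left out or assigned to either gene.

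*Lmx1b* has a close partner as well. The noncoding gene *C130021I20Rik* begins at position 33641193 of chromosome 2 and runs away from *Lmx1b*, and its start lies 95 bases from the RefSeq start of *Lmx1b*. In GENCODE, whose *Lmx1b* model begins closer to the coding part, the gap is 682 bases. *C130021I20Rik* had a level of 134.8 per kilobase (base mean 558.1), 1.45 times that of *Lmx1b*. The 250 bases before the *Lmx1b* start are shown because they hold the start of *C130021I20Rik* and end at the base before the start of *Lmx1b*. They are read on the minus strand of GRCm38.p6, chr2:33641099-33641348, from RefSeq. The capitals mark the 156 bases that lie within *C130021I20Rik*, from its start onward, on the other strand. Which of these bases are exon was not looked at.
Lmx1b upstream: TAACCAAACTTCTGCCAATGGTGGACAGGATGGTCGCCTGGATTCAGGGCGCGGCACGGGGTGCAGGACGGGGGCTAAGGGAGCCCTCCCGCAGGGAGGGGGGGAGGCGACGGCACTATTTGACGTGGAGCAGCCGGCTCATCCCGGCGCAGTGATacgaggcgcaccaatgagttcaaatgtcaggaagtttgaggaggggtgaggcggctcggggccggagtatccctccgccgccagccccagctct

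RefSeq promoter windows, from 250 bases before to 50 after a start, were given for 7 of the 8 genes, all but *Lbx1*, with 3 starts for *Pax2* and 9 windows in all. CpG dinucleotides were frequent in most of them. The median over all windows (32851) was 7 CpG, and 8 of the 9 windows had more, where 48.7% of all windows did. *Isl1* had 37 CpG in its window, percentile 94.7 of all windows, and *Mnx1* had 26. *Shox2* had 11, and the *Pax2* start that lies farthest upstream had 7. That start, at position 44746601, and the next, at 44755752, lie before the GENCODE model of *Pax2*, which begins at 44756045. The letters TAAT, the core that many homeodomains bind, searched on both strands, were found in 5 of the 9 windows and in 58.0% of all windows. The 5 were those of *Isl1*, *Mnx1*, *En1*, *Shox2* and 1 of the 3 starts of *Pax2*.

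All 5 paralogs looked at were listed above 0, and 4 of them lay below the factor they are related to. *Lmx1a*, the paralog of *Lmx1b* that acts in the roof plate and midbrain, had a base mean of 1.77, and *Lmx1b* exceeded it 179-fold per kilobase. *Lbx2* had a base mean of 6.18, and *Lbx1* exceeded it 16.0-fold per kilobase. In the Pax2/5/8 family, *Pax8* reached 51.1 per kilobase, so that *Pax2* exceeded it 2.15-fold, and *Pax5* reached 3.03 per kilobase. *En2*, known from the midbrain and cerebellum, went the other way. Its level of 25.7 per kilobase was 1.47 times that of *En1*, without overlap of the counting intervals, and its base mean was 90.8 against 45.9. *En2* lay above *En1* also with the other lengths tried.

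**Figure D3:**
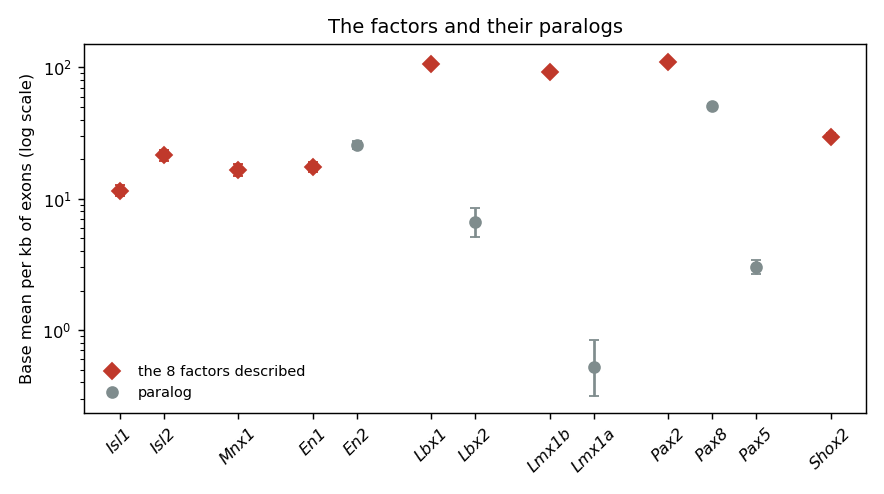
Base mean per kilobase of annotated exons (log axis) of the 8 factors and their paralogs, grouped by family, with 95% Poisson intervals of the pooled counts as bars. *Lmx1a*, *Lbx2* and *Pax5* lie far below their relatives, and *En2* lies above *En1*.

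The wider sets of spinal lineage factors put these levels in context. Of the motor neuron factors, 7 beyond the trio were looked at, and 0 of them lay below *Isl1*. *Lhx3*, a LIM homeodomain partner of *Isl1* in motor neurons, had a level of 16.6 per kilobase, as close to *Mnx1* as the digits shown allow. *Lhx4* had 11.8 (interval 10.9 to 12.7), the lowest of the 7, and its interval overlapped that of *Isl1*. The highest was *Esrrg*, a nuclear receptor of gamma motor neurons that other cells also make, at 329.5. The 7 had a median of 46.1 per kilobase, against 16.6 for the trio and 63.5 for all genes above 0.

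The 11 other ventral interneuron factors had a median of 12.1 per kilobase, between *Isl1* and *Mnx1*. Their levels ran from 0.724 for *Sim1* to 44.9 for *Sox21*, and 0 of the 11 reached the median of all genes. *Shox2* and *En1* both lay within that range. The 16 other dorsal horn factors had a median of 43.2 per kilobase and ran from *Lhx9* (2.39) to *Rora* (123.2). *Rora* was the only one of the 16 above *Pax2*, so *Pax2*, *Lbx1* and *Lmx1b* stood near the top of their list.

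Factors of dividing progenitors were spread much more widely. Of 22, 11 lay below *Isl1* and 4 above *Pax2*. *Dbx1*, a factor of embryonic interneuron progenitors, was at 0.0445 per kilobase, a base mean of 0.0932 that comes to about 1 count over the 10 libraries, while *Olig1*, a factor of the oligodendrocyte lineage, was at 2635. The forebrain factors served as a check of the lower end. They had a median of 0.159 per kilobase over 14 genes, from 0.0437 for *Six3* to 36.7 for *Neurod6*, and 13 of the 14 lay below *Isl1*. *Neurod6* was the exception and lay above *Shox2*.

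**Figure D4:**
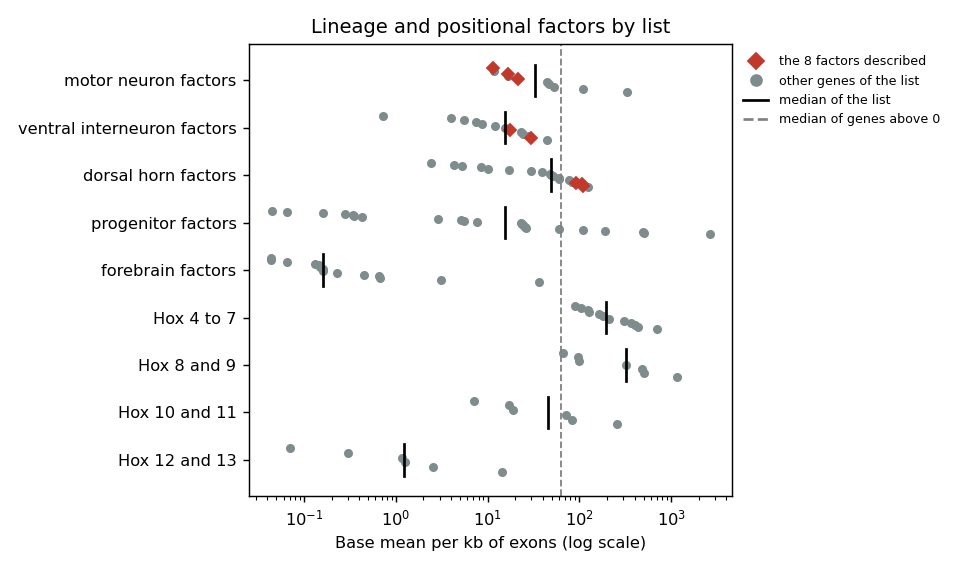
Base mean per kilobase of annotated exons (log axis) of each gene in 9 lists of lineage and positional factors, with the 8 factors as diamonds, list medians as bars and the median of all genes above 0 as a dashed line. Forebrain factors centre near 0.159, and the Hox genes of groups 8 and 9 centre at 322.8.

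Hox genes, which are switched on in order along the body axis, gave a check of the region. The 12 genes of paralog groups 4 to 7 had a median of 196.3 per kilobase and the 7 genes of groups 8 and 9 one of 322.8, led by *Hoxb8* (1160). The 6 genes of groups 10 and 11, which pattern the lumbar cord, had a median of 45.4, with *Hoxc10* at 256.0. The 6 genes of groups 12 and 13, which belong to the sacral and tail levels, had a median of 1.21. The levels of the embryonic lumbar groups and of more anterior groups were thus both present, and the values do not place the dissection on their own.

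Several transmitter genes of the same neuron classes were more abundant than the factors. Of the cholinergic genes, which motor neurons use at the muscle, *Chat*, which makes acetylcholine, had a level of 156.3 per kilobase, 13.6 times that of *Isl1* and 9.42 times that of *Mnx1*. *Slc18a3*, the vesicular acetylcholine transporter, reached 484.8, and it lies within the *Chat* locus. The 4 cholinergic genes had a median of 447.6. Cholinergic interneurons and preganglionic neurons use these genes as well. Among the inhibitory genes, *Slc32a1*, which loads GABA and glycine into vesicles, was at 1524 per kilobase, 13.9 times *Pax2*, and the 5 inhibitory genes had a median of 600.8. *Slc17a6*, the vesicular glutamate transporter of excitatory spinal neurons, was at 973.3, which is 10.5 times *Lmx1b* and 32.7 times *Shox2*. Of the 4 excitatory genes, whose median was 193.9, *Slc17a8* at 11.3 lay below *Shox2* and *Lmx1b*, and *Slc17a7* at 85.4 lay below *Lmx1b*. With no division by length *Slc17a7* lay slightly above *Lmx1b*, with base means of 460.2 and 453.3. The ratios moved with the length used. That of *Slc32a1* to *Pax2* was 5.97 with coding exons and 7.19 with no division by length. That of *Chat* ran from 8.72 to 16.1 against *Isl1* and from 9.42 to 19.7 against *Mnx1*. That of *Slc17a6* ran from 7.55 to 13.4 against *Lmx1b* and from 30.3 to 53.3 against *Shox2*.

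The tissue markers of the cord were all present. The 7 pan-neuronal markers had a median of 1588 per kilobase, and those of oligodendrocytes (5 genes, led by *Mbp*), astrocytes (5) and microglia (5) had medians of 12482, 723.8 and 283.8. The 2 markers of oligodendrocyte precursors had a median of 98.4, the 4 endothelial markers one of 134.0, and the 6 meningeal and Schwann cell markers one of 76.8. Markers of sensory ganglia, whose neurons also make *Isl1* and *Isl2*, were above 0 for 10 of 10 genes. They ran from 2.80 per kilobase for *Mrgprd* to 712.3 for *Prph*, which motor neurons make too. Between them lay *Calca* at 359.5, *Avil* at 21.1 and *Scn10a* at 10.9. *Pou4f1*, which is also in the list of dorsal horn factors, was at 51.6. The median of the 10 was 17.7, between the levels of *Isl1* (11.5) and *Isl2* (21.4). Genes of skeletal muscle were above 0 for 5 of 5, with *Acta1* at 163.5 and a median of 36.9. The part of ganglion tissue in the *Isl1* and *Isl2* levels was not tested.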

How the data were processed

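RNA-seq was run on spinal cord of 5 WT and 5 SOD1-G93A female mice of 90 days, grouped by the sample titles. According to the paper's methods and the submitters' processing notes, the authors filtered reads with Fastp, aligned them to mm10 with HISAT2 (2.1.0), counted uniquely mapped reads with featureCounts (2.0.2) and compared the genotypes with DESeq2. The gene annotation and the strand setting are not given in the sources used here. The deposited table holds the base mean of each gene, a normalised count signal that the authors averaged over the 10 libraries, and their own log2 fold change, standard error, Wald statistic, p-value and adjusted p-value. Only the base mean was used. The depth of each library and the spread between mice were not analysed here, and no test between the genotypes was made.

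Base means were divided by the union of exons in GENCODE M21, matched by symbol for 24310 genes (96.3%). Intervals are 95% exact Poisson intervals of the base mean multiplied by 10. Promoter windows are from RefSeq (GRCm38.p6). Genes sharing a symbol in GENCODE had no level per kilobase. The gene lists were written by hand, 1 gene first placed in them is not reported here, and the members and lists were chosen with earlier results of these data known. The genes that could be named were the 8 factors and their paralogs, the highest and lowest gene of each list and any marker gene, of which the text names a part, and *Lhx3* and *Hoxc10* were added after their values were seen. Of the 10 genes that lie within 10 kb of a factor, 5 had a base mean, and only *Rsrc1* and *C130021I20Rik* were named. The alternatives were other lengths, other backgrounds and other medians. Calculations were tested on simulated data. Python 3.11.15, numpy 2.4.6, pandas 2.3.3, scipy 1.17.1 and matplotlib 3.10.9 were used.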

Additional observations from a re-analysis of the deposited data

How the results depend on the processing

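The order of the 8 factors per kilobase, 28 pairs in all, was kept in 26 pairs with the longest transcript, 24 with coding exons only and 26 with no division by length. The ratio of the interneuron to the motor neuron median of the 8 factors, in which the interneuron median was a dorsal horn factor, lay between 5.22 and 7.71. The number of factors above the median of the genes was 3 against all genes above 0, all genes in the table and protein coding genes, and 0 when genes under a base mean of 10 were left out of the background, which then holds fewer low genes. The lists with a median above that of all genes numbered 12 of 22 under all 3 medians tried. The level of 4 of the 8 factors moved out of its counting interval with the longest transcript and of 8 with coding exons only. No paired analysis was possible because the table holds no values of single libraries, and leaving out single libraries, other size factors and a filter on counts were not run for the same reason. The identity of the homeodomains was not run, since no protein sequences were used here. Depth per library limits the base means in a way that was not analysed here.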
